A study of Mus musculus with 6 samples.

Results

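The transcripts described here are 9 genes that mark or serve the medium spiny neurons of the striatum: Drd1, Drd2, Adora2a, Gpr6, Ppp1r1b, Adcy5, Pde10a, Rgs9 and Foxp1. They were taken by gene symbol from the 34250 rows of the deposited table, and all 9 were present. RNA was measured in 6 mouse libraries, 3 control and 3 fibrinogen, labelled as oligodendrocyte progenitor cells (OPCs, the glial precursors of myelin-forming cells) of wild-type C57BL/6 brain. Control libraries were labelled only as such, and the others had received fibrinogen, the plasma protein that forms clots, given as 2.5 mg in the column names. The study described primary cultures from the cortex of newborn pups, with the basal nucleus, a region that includes the striatum, dissected away. The labels give no age, and they do not state whether replicates are separate cultures, although the column names number them as mice. A p-value here therefore covers library-to-library spread, some of which may be technical. As labelled, the comparison asked which transcripts change when OPCs meet fibrinogen.

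Medium spiny neurons are the GABA-releasing projection neurons that make up most of the striatum. Those of the direct pathway carry the dopamine D1 receptor, which raises cyclic AMP, and those of the indirect pathway carry the dopamine D2 receptor, which lowers it. The indirect-pathway cells also carry the adenosine A2a receptor, which opposes the D2 receptor. Cyclic AMP made by adenylyl cyclase and removed by phosphodiesterases sets the phosphorylation of many proteins in these neurons.

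The libraries held 36670999 to 44448983 reads assigned to genes. They were rich in neuronal transcripts. The summed level of 10 neuron genes was 1373 to 1537 RPKM (reads per kilobase of exon, scaled to each library's total of reads assigned to genes) in controls and 1368 to 1685 RPKM with fibrinogen, with none of the 10 at 0. That of 10 OPC markers was 55.0 to 59.1 RPKM in controls and 76.0 to 79.5 RPKM with fibrinogen, again with none at 0. Neuron genes thus far exceeded OPC markers in libraries labelled as OPCs. Whether the RNA came from purified OPC cultures or from a mixture of brain cells or tissue was not settled by the labels, so the levels and fibrinogen differences given here are those of the libraries as labelled and cannot be assigned to OPCs. The 10 cerebral cortex genes summed to 224 to 258 RPKM in controls and 267 to 287 RPKM with fibrinogen. Fewer cells of a type and less RNA per cell cannot be told apart in such bulk samples.

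The promoters of the D1 and D2 receptor genes and of Gpr6 are shown because these receptors of the direct pathway (Drd1) and the indirect pathway (Drd2 and Gpr6) were high and low in the same control libraries. They run 5′ to 3′ on the strand of the gene, from 250 bases before to 50 bases after a RefSeq transcript start on GRCm38.p6, with motif matches in capitals. Drd1 lies on the minus strand at chr13:54055609-54055908, Drd2 on the plus strand at chr9:49340153-49340452 and Gpr6 on the minus strand at chr10:41072241-41072540.
Drd1: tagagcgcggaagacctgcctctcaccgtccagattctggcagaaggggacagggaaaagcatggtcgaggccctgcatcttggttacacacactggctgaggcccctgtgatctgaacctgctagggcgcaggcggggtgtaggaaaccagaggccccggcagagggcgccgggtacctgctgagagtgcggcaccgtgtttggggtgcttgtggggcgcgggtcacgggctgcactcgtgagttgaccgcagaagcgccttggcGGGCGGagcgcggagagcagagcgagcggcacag
Drd2: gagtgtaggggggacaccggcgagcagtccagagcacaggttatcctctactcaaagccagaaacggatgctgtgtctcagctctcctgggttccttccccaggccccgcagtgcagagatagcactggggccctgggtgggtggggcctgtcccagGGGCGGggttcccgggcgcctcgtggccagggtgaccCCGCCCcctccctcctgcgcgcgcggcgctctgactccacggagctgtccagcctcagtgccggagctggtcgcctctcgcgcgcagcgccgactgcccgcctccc
Gpr6: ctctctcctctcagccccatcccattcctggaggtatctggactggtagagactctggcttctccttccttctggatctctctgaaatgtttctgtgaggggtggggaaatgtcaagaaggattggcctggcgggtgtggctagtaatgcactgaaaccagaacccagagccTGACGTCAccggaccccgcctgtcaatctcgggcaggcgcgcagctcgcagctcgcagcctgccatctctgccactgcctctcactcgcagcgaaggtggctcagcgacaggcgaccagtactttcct
The capitals mark the GC box GGGCGG, found at 16 bases after the start in this Drd1 window and at 93 and 56 bases before it in Drd2, and the cyclic AMP response element core TGACG, which matches Gpr6 on both strands in overlapping letters. A second Drd1 window, chr13:54054731-54055030, is not shown and has a GC box 133 bases before its start. On either strand GGGCGG was in 35.7% and TGACG in 20.8% of 32851 RefSeq promoters of this length. TATAAA (13.6% of promoters) and GTAAACA (3.65%), also searched, had no match in these 3 windows. Of the 9 genes 7 had an entry; Adora2a and Ppp1r1b did not.

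Within the control group most of these genes differed severalfold between libraries, in the same order. Control replicate 2 was the highest control for 9 of the 9 genes, and control replicate 3 the lowest for 8 of 9, the exception being Foxp1. Counting error alone covers the differences among the Foxp1 controls (3.82 to 3.88 RPKM). It also covers that between control replicates 1 and 2 for Gpr6 (38 and 45 reads). Of the 14710 genes that passed the filter on low values (1 RPKM or more in 3 libraries or more), 22.2% had control replicate 2 highest and replicate 3 lowest, against 8 of the 9 members. Fibrinogen replicate 3 was the lowest fibrinogen library for 9 of 9, where 27.7% of all tested genes had it lowest. For Gpr6 it held 30 reads, as did fibrinogen replicate 1. The fibrinogen and control groups overlapped for each gene but Foxp1, 1 of the 8 tested, while the groups were apart for 35.1% of all tested genes (17.4% with fibrinogen higher, 17.7% lower). Of the 8 genes tested 0 changed with fibrinogen (limma, adjusted p under 0.05), against 11.5% of all tested genes, 5.87% higher and 5.62% lower. At an unadjusted p under 0.05 there was 1, Foxp1, where 29.4% of all tested genes passed, and limma-voom on the recovered reads also called 0, with 2 under that p.

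**Figure D1:**
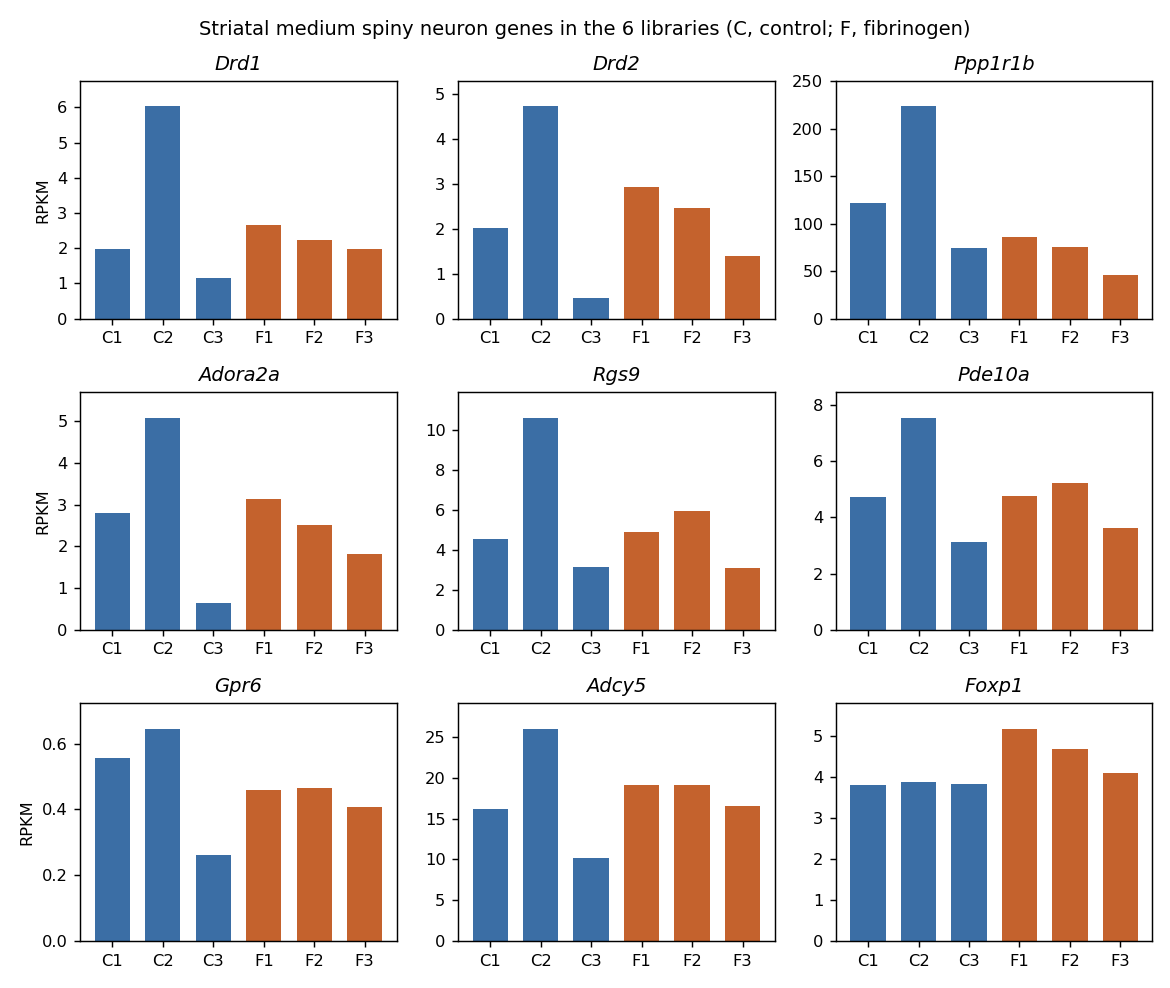
RPKM of each gene (bars, 1 per library, axis from 0 and different for each gene) in control (C1 to C3, blue) and fibrinogen (F1 to F3, orange) libraries. Control replicate 2 is the highest library for 8 genes, and control replicate 3 the lowest for 6; Foxp1 alone has each control below each fibrinogen library.

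Drd1 encodes the D1 dopamine receptor of direct-pathway neurons (chromosome 13, 54051186 to 54055658, GRCm38). It was at 1.98, 6.03 and 1.17 RPKM in control replicates 1 to 3 and at 2.67, 2.23 and 1.98 RPKM in fibrinogen replicates 1 to 3. Control replicate 2 stood 5.16-fold above control replicate 3, and the fibrinogen libraries lay between them. The log2 change of RPKM + 1, fibrinogen minus control here and below, was -0.12 ± 0.39 (SE, n = 3 per group; limma adjusted p = 0.867).

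Drd2 encodes the D2 dopamine receptor of indirect-pathway neurons (chromosome 9, 49340627 to 49408177) and had the widest control range of the 9. It was at 2.02, 4.72 and 0.459 RPKM in controls and at 2.92, 2.46 and 1.40 RPKM with fibrinogen. The lowest value rested on 50 reads, which allow 0.341 to 0.605 RPKM by counting error alone (exact Poisson, 95%), and the highest on 469 reads (4.30 to 5.16 RPKM). The controls thus spanned 10.3-fold, with counting intervals that did not meet, and enclosed the fibrinogen values. The log2 change was 0.12 ± 0.46 (SE, n = 3; limma adjusted p = 0.888), and it turned to -0.38 without control replicate 3.

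Adora2a encodes the adenosine A2a receptor (chromosome 10, 75316943 to 75334788), which sits on the same neurons as the D2 receptor. It was at 2.81, 5.09 and 0.637 RPKM in controls and at 3.14, 2.504 and 1.81 RPKM with fibrinogen. As for Drd2, control replicate 2 was the highest of the 6 libraries, control replicate 3 the lowest and fibrinogen replicate 3 the next lowest. The ratio of Adora2a to Drd2 stayed within 1.02 to 1.39 over the 6 libraries. The ratio of Drd2 to Drd1 moved more, from 0.393 in control replicate 3 to 1.10 in fibrinogen replicates 1 and 2. The log2 change of Adora2a was 0.035 ± 0.44 (SE, n = 3; limma adjusted p = 0.970), and -0.48 without control replicate 3.

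Gpr6, an orphan receptor of indirect-pathway neurons (chromosome 10, 41069977 to 41072285), was the scarcest member and stayed under the filter on low values. It was at 0.556, 0.645 and 0.262 RPKM in controls and at 0.458, 0.466 and 0.408 RPKM with fibrinogen, on 20 to 45 reads per library. The counting intervals of its highest (0.471 to 0.863 RPKM) and lowest (0.160 to 0.405 RPKM) libraries did not meet, and each met those of the 3 fibrinogen libraries in part. Fitted without the filter its log2 change was -0.034 ± 0.11 (SE, limma adjusted p = 0.887).

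The signalling genes shared by D1 and D2 neurons were more abundant. Adcy5, the main adenylyl cyclase of the striatum (chromosome 16, 35154877 to 35305737), was at 16.2, 26.0 and 10.2 RPKM in controls and at 19.1, 19.2 and 16.6 RPKM with fibrinogen. Its control range of 2.55-fold enclosed the fibrinogen libraries, which spanned 1.16-fold. Pde10a, a phosphodiesterase concentrated in medium spiny neurons (chromosome 17, 8525372 to 8986648), was at 4.72, 7.55 and 3.11 RPKM in controls and at 4.76, 5.22 and 3.61 RPKM with fibrinogen. Rgs9, which speeds the shut-off of G proteins downstream of dopamine receptors (chromosome 11, 109225355 to 109298129), was at 4.55, 10.6 and 3.17 RPKM in controls and at 4.90, 5.95 and 3.09 RPKM with fibrinogen. Log2 changes were 0.15 ± 0.29 for Adcy5, -0.095 ± 0.26 for Pde10a and -0.23 ± 0.38 for Rgs9 (SE, n = 3 per group; limma adjusted p = 0.763, 0.838 and 0.727). The signs of Drd1, Pde10a and Rgs9 turned without control replicate 2, to 0.37, 0.18 and 0.20, and that of Adcy5 without control replicate 3, to -0.16.

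Ppp1r1b encodes the phosphoprotein that inhibits protein phosphatase 1 when dopamine raises cyclic AMP (chromosome 11, 98348404 to 98357796), and it was the most abundant member. It was at 121.5, 223.2 and 74.5 RPKM in controls and at 86.4, 75.3 and 46.3 RPKM with fibrinogen. Within each group control replicate 2 and fibrinogen replicate 1 were high and replicate 3 low, but the fibrinogen libraries stood low, with only the lowest control among them. The group means were 139.7 RPKM ± 76.0 and 69.3 RPKM ± 20.7 (SD, n = 3). The log2 change was -0.91 ± 0.40 (SE, limma adjusted p = 0.185), with a 95% interval from -1.85 to 0.038. Other settings gave adjusted p-values from 0.0507 to 0.412.

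Foxp1, a forkhead transcription factor of striatal and also of cortical neurons (chromosome 6, 98925338 to 99522721), lacked the wide control spread of the other members. It was at 3.82, 3.88 and 3.83 RPKM in controls, a range of 1.02-fold, and at 5.19, 4.70 and 4.11 RPKM with fibrinogen. Its fibrinogen libraries fell from replicate 1 to replicate 3, as did those of Drd1, Drd2, Adora2a and Ppp1r1b. Each fibrinogen library lay above each control, as was so for 17.4% of all tested genes. The log2 change was 0.22 ± 0.09 (SE, n = 3; limma adjusted p = 0.156), which did not pass the test, and 0 of 15 alternatives called it.

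**Figure D2:**
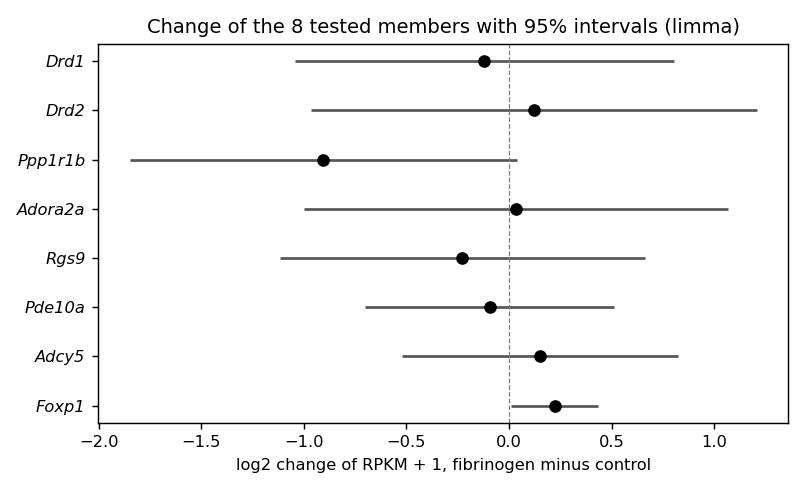
Log2 change of RPKM + 1, fibrinogen minus control, for the 8 tested members (points), with 95% intervals from limma (lines). The intervals cross 0 except that of Foxp1 (0.0085 to 0.44), which does not pass after adjustment over 14710 genes.

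By mean level over the 6 libraries, per exon length, the order was Ppp1r1b (104.5 RPKM), Adcy5 (17.9), Rgs9 (5.38), Pde10a (4.83), Foxp1 (4.25), Drd1 (2.68), Adora2a (2.67), Drd2 (2.33) and Gpr6 (0.466 RPKM). Ppp1r1b stood apart, with its lowest library above the highest of Adcy5, and the highest library of Gpr6 was below the lowest of each gene but Drd2 and Adora2a. From Adcy5 to Drd2, the range of each gene overlapped that of the next, although Adcy5 exceeded Rgs9 within each of the 6 libraries. The spread among controls was wide by the standard of the whole table. The SD of the 3 control log2 values stood at or above the 97.0th percentile of all tested genes for 7 of the 8 tested members, with Drd2 at the 99.6th, while Foxp1 was among the lowest 0.510%. The median control SD was 0.78 on the log2 scale for the 8 members and 0.12 for all tested genes, and the median fibrinogen SD was 0.25 and 0.11.

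The genes moved together from library to library. Across the 6 libraries the median Pearson r between log2 values of 2 members was 0.85 over 28 pairs, and 0.91 over the 21 pairs without Foxp1. After subtracting each group's mean, the 21 pairs had a median r of 0.95, from 0.88 to 0.99. The mean r over all pairs of tested genes was 0.0042 on that scale, but positive and negative r cancel in it. The 7 pairs with Foxp1 had a median of 0.35 on that scale and 0.086 as measured, but the latter rested on control replicate 2. Without that library their median was 0.63, from -0.042 to 0.79, and it was 0.50 without control replicates 2 and 3. These values describe 6 libraries that share their preparation, and they were lower in part without control replicates 2 and 3. Without control replicate 2 the median over 21 pairs was 0.82, with the lowest at 0.052, and without control replicates 2 and 3 it was 0.71, with the lowest at -0.0072. In the 15 pairs that also leave out Ppp1r1b it was 0.93 and 0.77.

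**Figure D3:**
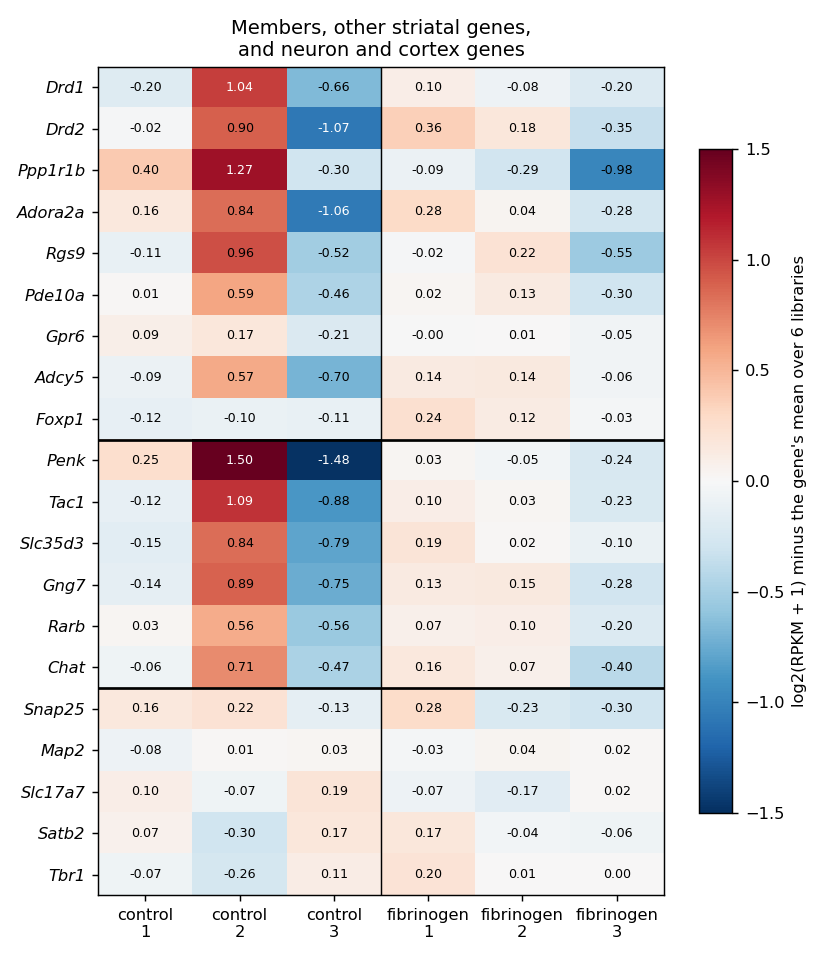
log2(RPKM + 1) of each gene minus its own mean over the 6 libraries, for the 9 members (top), 6 other striatal genes (middle) and 5 neuron and cortex genes (bottom), chosen for display after their values were seen. Red is above and blue below the gene's mean; the striatal genes other than Foxp1 share a high control replicate 2 and a low control replicate 3, which of the bottom 5 only Snap25 does.

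Other genes of the 2 pathways were counted from lists set beside the members. Of 7 further direct-pathway genes control replicate 2 was highest and replicate 3 lowest among controls for 6, and 0 of the 4 tested passed. Tac1, the substance P precursor, was at 1.91, 5.71 and 0.716 RPKM in controls and at 2.38, 2.23 and 1.69 RPKM with fibrinogen. It thus had the range and the library order of the receptors. Pdyn, the dynorphin precursor, was at 5.43, 9.45 and 4.12 RPKM in controls and at 5.98, 4.16 and 3.16 RPKM with fibrinogen (log2 change -0.40, limma adjusted p = 0.402). Chrm4, the M4 muscarinic receptor of D1 neurons, had a log2 change of -0.19 (limma adjusted p = 0.503), which passed without control replicate 3 (limma adjusted p = 0.0382).

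Among 5 indirect-pathway genes in the table the control order held for 2, and 0 of the 3 tested passed. Penk, the enkephalin precursor, was the most abundant of the striatal genes listed here. It was at 247.1, 586.5 and 73.5 RPKM in controls and at 211.0, 200.7 and 175.0 RPKM with fibrinogen, so that control replicate 2 exceeded replicate 3 by 7.98-fold while the fibrinogen libraries stood close together. Its log2 change was -0.18 ± 0.65 (SE, limma adjusted p = 0.886), and 0.53 without control replicate 2. Grik3, a kainate receptor subunit, was at 14.0 to 16.6 RPKM in controls and 15.2 to 16.6 RPKM with fibrinogen and did not follow the order (log2 change 0.077, limma adjusted p = 0.585; it was -0.0080 with array weights).

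Of 19 striatal signalling genes 16 had the control order and 0 passed the test, with 2 at an unadjusted p under 0.05 and 1 called by limma-voom (Prkar2b, a regulatory subunit of protein kinase A, named after its value was seen). The most abundant, the phosphodiesterase Pde1b and the inositol trisphosphate receptor Itpr1, had log2 changes of -0.23 and -0.057 (limma adjusted p = 0.480 and 0.830), the latter turning to 0.024 without control replicate 2 and 0.079 without fibrinogen replicate 3. Of 11 striatal transcription factors 10 had the order, and 0 of the 6 tested passed, with log2 changes of 0.036 for Bcl11b and 0.46 for the retinoid receptor Rxrg (limma adjusted p = 0.910 and 0.547). Bcl11b turned to -0.12 without control replicate 3 and -0.021 without fibrinogen replicate 3. Of the other striatal and GABA lists 0 genes passed at an unadjusted p under 0.05 or by limma-voom. The median log2 change was -0.030 for the 8 tested members, -0.13 and -0.18 for the direct and indirect pathway lists, 0.050 for signalling genes, -0.023 for transcription factors and -0.0077 for all tested genes.

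Markers of other cells and regions were read in the same libraries. The 5 markers of striatal cholinergic interneurons, all under the filter, had control replicate 2 highest for 5 and replicate 3 lowest for 4. Chat, which makes acetylcholine, was at 0.623, 1.78 and 0.225 RPKM in controls and at 0.893, 0.785 and 0.285 RPKM with fibrinogen. Summed over the 5 markers the level was 0.705 to 5.74 RPKM in controls and 0.715 to 2.15 RPKM with fibrinogen. The cerebral cortex list did not share the order, with control replicate 2 highest of the controls for 0 of 10 genes and lowest for 9 of 10, and neither did the neuron list, with 2 of 10 highest there. The 5 choroid plexus markers shared it in part, with control replicate 3 lowest for 4 and replicate 2 highest for 2, none at 0, and a summed level of 2.65 to 28.5 RPKM in controls and 17.9 to 35.7 RPKM with fibrinogen. Clic6, a chloride channel protein and 1 of the 2 that were tested, was at 2.94, 5.68 and 0.658 RPKM in controls and at 2.15, 1.60 and 1.70 RPKM with fibrinogen. Its control replicates 2 and 3 differed by 8.64-fold, and its r with the members' mean was 0.92, while Ttr, the other tested marker, had an r of 0.16. Of 4 GABA neuron genes 3 had the order, and 0 passed the test (Gad1 -0.097 and Gad2 -0.15 on the log2 scale, limma adjusted p = 0.577 and 0.615, Gad2 turning to 0.061 without control replicate 2). The part of cholinergic, choroid plexus or cortical cells in the members' levels was not tested.

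Against the mean of the neuron list, the mean log2(RPKM + 1) of the 9 members was -3.67, -3.00 and -4.19 in controls and -3.76, -3.64 and -4.07 with fibrinogen. The control range of 1.19 was close to that of the members alone (1.26), with the neuron list ranging over 0.069. Against the cerebral cortex list the range in controls was 1.51. It was 0.41 against the cholinergic markers and 0.37 against the direct-pathway genes, whose own levels were high in control replicate 2.

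**Figure D4:**
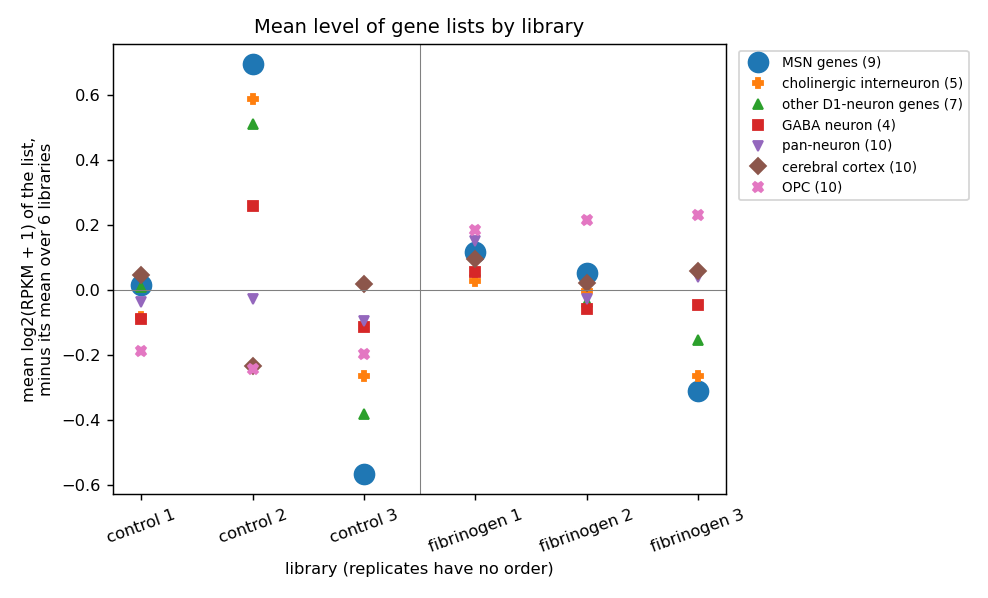
Mean log2(RPKM + 1) of each gene list minus its mean over the 6 libraries, by library (points; number of genes in brackets; MSN, medium spiny neuron). The members range over 1.26 in controls, the neuron list over 0.069 and the cerebral cortex list over 0.28.

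In the other lists, 1 of 10 neuron genes (Stmn2, log2 change 0.45), 5 of 9 tested OPC markers (among them Olig2, 0.82, and Gpr17, 0.81), and 2 of 10 cortex genes (Neurod6, 0.87, and Neurod2, -0.43) passed (limma, adjusted p under 0.05). The OPC list was mixed, with a positive log2 change for 7 tested markers and a negative one for 2. Those 2 were Pdgfra (-0.11) and Lhfpl3 (-0.081), which did not pass (limma adjusted p = 0.615 and 0.726). Of all tested genes 11.5% passed. Of the tested markers of other regions Ramp3 (0.60) among 5 for thalamus, Pomc (0.61) and Agrp (-1.57) among 2 for hypothalamus, Cdhr1 (1.16) among 3 for olfactory bulb and Ddc (-0.97), the 1 tested for midbrain dopamine neurons, passed. The Agrp entry runs from base 105566698 to 105637393 of chromosome 8 with only 1013 exon bases. Where in that span its reads fell was not tested. The untested hypothalamus markers reached at most 1.62 RPKM in any library. By limma-voom 6 OPC, 3 cortex and 2 thalamus genes were called, and as many as by limma in the neuron, hypothalamus, olfactory bulb and midbrain lists. Of 2 hippocampus, 3 cerebellum, 2 choroid plexus and 1 immune gene 0 passed by limma or limma-voom, with 2 of the cerebellum genes at an unadjusted p under 0.05. Gpr17, Agrp and Cdhr1 passed in each alternative that tested them, and the other called genes named here lost the call in 1 to 7 alternatives.

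Ppp1r1b was lower in each fibrinogen library than in each control once it was set against the other members, a comparison made after the values were seen. Its log2 level minus the mean of the other 7 tested members was 4.59, 4.72 and 4.49 in controls and 3.89, 3.74 and 3.41 with fibrinogen, a difference of -0.92 between group means. The groups did not overlap, as was so, against the mean of all 8 members, for 2.58% of all tested genes and in this direction for 0.904%. Without that subtraction the groups were apart for 35.1% of all tested genes. The members' mean varied widely among controls, and genes that do not follow it take on that spread. These shares are therefore no measure of how rare the Ppp1r1b result is. The ratio of Ppp1r1b to Adcy5 was 7.29 to 8.58 in controls and 2.79 to 4.53 with fibrinogen, and that of Ppp1r1b to Pde10a was 23.9 to 29.6 and 12.8 to 18.1. Adcy5 was the other member without overlap, by 0.29 in the opposite direction, but its reference mean holds Ppp1r1b. Against the 5 members left without Ppp1r1b and Foxp1, its groups overlapped, at 1.84 to 2.19 in controls and 2.13 to 2.42 with fibrinogen. With 3 libraries against 3, an exact permutation test cannot give a p under 0.1, and none was run.

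**Figure D5:**
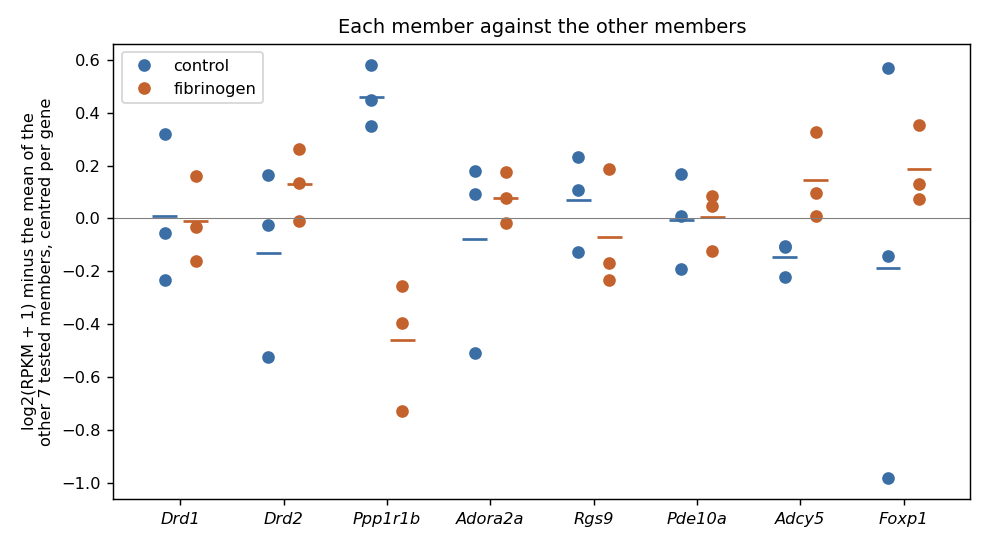
log2(RPKM + 1) of each tested member minus the mean of the other 7, centred on its own mean over the 6 libraries (points, 1 per library; bars, group means). For Ppp1r1b each fibrinogen library is below each control, with a difference of -0.92 between means.

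Likeness was ranked among 6542 tested genes with a mean of at least 5 RPKM. Members, predicted gene models (Gm with a number, or ending in Rik) and date-like names were left out. Those whose log2 levels followed the mean of the 8 tested members most closely over the 6 libraries were Spry2 (r = 0.994), Gng7 (0.986), Psma5 (0.964), Inpp5f (0.963), Rgs8 (0.959), Rps23-ps1 (0.959), Ncs1 (0.955), Penk (0.955), B4galnt1 (0.953) and Cxx1a (0.952). Gng7, a G protein gamma subunit of the striatum and also in the signalling list, was at 9.33, 19.97 and 5.76 RPKM in controls and at 11.5, 11.6 and 8.34 RPKM with fibrinogen. Its control replicates 2 and 3 differed by 3.47-fold, as much as those of the members, whose median was 3.18-fold. Spry2, a feedback inhibitor of growth factor signalling, followed the same order over a narrower range, from 7.98 RPKM in control replicate 3 to 11.6 RPKM in control replicate 2. Apart from Penk (7.98-fold), the rest also differed little between those libraries, from 1.17-fold for Psma5 to 1.58-fold for Rgs8. Pearson r takes no account of the size of such differences. Rps23-ps1 is a pseudogene whose reads may come from its parent gene. In all, 0.755% of tested genes had r over 0.9 with this mean, and the median was -0.037. The members' own r, 0.93 to 0.99 for 6 of them, 0.82 for Ppp1r1b and 0.12 for Foxp1, are raised because each is part of the mean.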

How the data were processed

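Stranded mRNA libraries were prepared from total RNA. The submitters' processing notes name Trimmomatic 0.39, STAR 2.7.6a, featureCounts 1.5.1, edgeR 3.12.1 and GRCm38; in the study's methods STAR has a different release number and the build is a later one. Gene ends in the table matched GRCm38 (49.8% of 25667 shared symbols within 10 bases), not GRCm39 (1.84% of 29810). The authors deposited RPKM values, reads per kilobase of exon scaled to each library's assigned reads. Whole reads were recovered from them (100% of values within 0.001 of a whole number). How multiply mapped reads were counted is not given in the sources used here.

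Because RPKM is not a count, limma 3.58.1 (R 4.3.3) with a trended prior was fitted to log2(RPKM + 1) of the 14710 genes that reached 1 RPKM in 3 or more of the 6 libraries, two-sided, with Benjamini-Hochberg adjustment over all of them and a threshold of 0.05. The log scale with a pseudocount of 1 understates changes of low genes. The fit was tested on simulated reads in which all genes had the same, typical spread. It recovered 73.1% of 1.5-fold, 100% of 2-fold and 97.0% of 3-fold changes, and 10.4% of its calls were unchanged genes. With no change simulated 0 genes were called. Most members spread more than that among controls, so the simulation does not describe them. The members and lists were chosen with earlier results of these data known. Genes to be named were the 9 members, from each list up to 4 called genes (smallest p), else its 2 most abundant, and the 10 genes of highest r with the members' mean. The last were taken from genes with a mean of at least 5 RPKM, without members, predicted gene models and date-like names. Some of the list genes so chosen are not named above. Tac1, Chat, Prkar2b, Pdgfra, Lhfpl3 and genes shown in the plots were added after seeing the values. Alternatives were 2 other pseudocounts, other filters, scalings, weights and prior, limma-voom, a block for the replicate number and fits without each library; ratios to other members were added after seeing the data. Library pairs differed by at least 12.6 chi-square per degree of freedom, more than counting noise. That lowest value was for control replicates 1 and 2. The next closest pair, fibrinogen replicates 1 and 3, stood at 34.4. Promoters are from RefSeq (GRCm38.p6).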

Additional observations from a re-analysis of the deposited data

How the results depend on the processing

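None of the 16 alternatives called a member at an adjusted p under 0.05, and Ppp1r1b and Foxp1 kept their sign in every one that tested them. Leaving out 1 library at a time gave log2 changes of -0.48 to 0.37 for Drd1, -0.38 to 0.60 for Drd2, -0.48 to 0.46 for Adora2a, -0.54 to 0.20 for Rgs9, -0.35 to 0.18 for Pde10a, -0.16 to 0.47 for Adcy5, -1.28 to -0.50 for Ppp1r1b, 0.16 to 0.29 for Foxp1, -0.96 to 0.53 for Penk, -0.19 to 0.079 for Itpr1, -0.12 to 0.21 for Bcl11b and -0.29 to 0.061 for Gad2. With array weights, which gave control replicate 3 the lowest weight, Drd2 was at -0.045, Adora2a at -0.20 and Grik3 at -0.0080; the cause was not tested. Of all genes 1689 were called, 863 higher and 826 lower. These counts were 935, 447 and 488 when all 32364 genes above 0 were tested, 4041, 2007 and 2034 with array weights, and 466 to 2300, 216 to 1182 and 248 to 1118 without 1 library (466 without control replicate 1, 2300 without control replicate 3). Restricting the test to means of 5 RPKM or more, and so to fewer genes and 3 members, 1052 were called, 468 of them lower. With the replicate block 600 were called, 284 higher and 316 lower. The pairing rests on a number alone. Deviations from group means of libraries with a common number had correlations of 0.058, -0.24 and -0.075, which cannot settle whether they are paired. The members' level against neuron genes, -0.20 between groups, was -0.23 without Snap25, the most abundant of them. Gpr6 rested on 20 to 45 reads per library, so its values carry the widest relative counting error of the 9 genes.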
